A study of Mus musculus with 10 samples.

Results

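The Ly6 surface proteins described here are 4 genes, Ly6a, Ly6c1, Ly6c2 and Ly6e, of 23992 gene symbols measured by RNA sequencing in 10 libraries of mouse regulatory T cells (Tregs). The genes were chosen by symbol, and where a symbol had several transcripts the one with the highest mean reads over the 10 libraries stood for it. The study asked how the cytokine TSLP (thymic stromal lymphopoietin), which is released by barrier epithelia, acts on Tregs. All animals were C57BL/6J. Natural Tregs (nTregs) from wild-type spleen were cultured for 24 h with anti-CD3 and anti-CD28, antibodies that stimulate the T cell receptor (TCR), either alone (TCR, 2 libraries) or with TSLP added (TCR + TSLP, 2 libraries). Lung Tregs came from allergic lung tissue of OVA-immunized mice, either Foxp3YFP-Cre animals labelled wild-type (control, 3 libraries) or Crlf2fl/fl Foxp3YFP-Cre animals labelled conditional knock-out (Crlf2-deleted, 3 libraries). Both lung genotypes therefore carry the Cre, which is expressed from Foxp3, the Treg lineage gene, so that the floxed Crlf2, which encodes the TSLP-binding chain of the TSLP receptor, is lost in Foxp3-expressing cells. The labels used here give no ages. They leave unsaid whether a replicate is another animal or culture, and p-values cover the spread between libraries alone, part of which may be technical.

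Ly6 proteins are small, cysteine-rich proteins built around a Ly6/uPAR domain and held on the outer face of the membrane by a glycosylphosphatidylinositol (GPI) lipid anchor, with no cytoplasmic tail of their own. Ly6a encodes Sca-1, known from blood stem cells and from activated and memory T cells. Ly6c1 and Ly6c2 encode the near-identical proteins that anti-Ly6C antibodies stain, which mark inflammatory monocytes, some endothelial cells and T cell subsets, and in Tregs have been used to tell resting from more activated cells. Ly6e is found on immature thymocytes and many other cells and is known for limiting coronavirus entry. Interferons are known inducers of Ly6a, Ly6c and Ly6e transcription.

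The 4 genes lie together on chromosome 15 (GRCm38, GENCODE M21), within 157 kb that hold 5 protein-coding genes, the other being Ly6i. Ly6e was on the plus strand at chr15:74955051-74959905, and on the minus strand stood Ly6a at chr15:74994877-74998031, Ly6c1 at chr15:75044018-75048830 and Ly6c2 at chr15:75108158-75111970. Each representative transcript had 4 exons, and no annotated gene overlapped any of the 4. The Ly6c pair is close to a duplicate, which limits how 50-base reads can be assigned to either gene. Exon 3, which is coding in all of them, is shown because its 117 bases were the same, letter for letter, in Ly6c1 (chr15:75047353-75047469) and Ly6c2 (chr15:75110511-75110627), whereas Ly6a (chr15:74996452-74996568) differed from them at 25 bases, given in capitals. The sequences are read 5′ to 3′ on the minus strand of GRCm38.
Ly6c1 exon 3: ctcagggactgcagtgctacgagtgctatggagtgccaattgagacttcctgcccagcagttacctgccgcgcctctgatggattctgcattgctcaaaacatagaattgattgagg
Ly6c2 exon 3: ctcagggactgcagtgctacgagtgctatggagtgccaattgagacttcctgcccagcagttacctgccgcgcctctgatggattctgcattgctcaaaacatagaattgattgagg
Ly6a exon 3: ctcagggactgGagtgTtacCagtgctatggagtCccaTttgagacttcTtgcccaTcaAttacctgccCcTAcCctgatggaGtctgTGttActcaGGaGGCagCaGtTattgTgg

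The coding part of exon 2, 70 bases from the start codon, is shown because it does separate the pair. Ly6c1 (chr15:75048442-75048511) and Ly6c2 (chr15:75111598-75111667) differed there at 6 bases, in capitals in both, and the capitals in Ly6a (chr15:74997535-74997604) mark its 2 differences from Ly6c1.
Ly6c1 exon 2: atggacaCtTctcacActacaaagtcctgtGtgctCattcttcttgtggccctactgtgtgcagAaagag
Ly6c2 exon 2: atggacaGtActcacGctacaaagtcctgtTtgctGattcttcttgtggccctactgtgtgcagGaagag
Ly6a exon 2: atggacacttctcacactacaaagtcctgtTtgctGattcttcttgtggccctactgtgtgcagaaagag

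Over whole transcripts, Ly6c1 and Ly6c2 had 802 of 822 aligned bases in common (97.6%). Of the 795 windows of 50 bases in the Ly6c1 transcript, 252 (31.7%) occurred unchanged in Ly6c2 and 698 (87.8%) did so with up to 2 mismatches. Ly6a shared 91 of its 906 windows (10.0%) with other genes, 40 of them with Ly6c1, and Ly6e shared 0 of 2232 with any annotated gene. The sources used here do not say how reads that match several places were treated, so the split of reads between Ly6c1 and Ly6c2 is uncertain, and Ly6e is free of this limit. The limit also holds between Ly6c1 and Ly6a, which had far more reads (15153 against 245 in TCR replicate 1). Of the Ly6c1 windows, 40 (5.03%) occurred unchanged in Ly6a and 148 (18.6%) matched it with up to 2 mismatches. Reads from the sequence shared with Ly6a may enter the Ly6c1 counts, and their part was not tested. In the RefSeq promoter windows of Ly6c1 and Ly6c2 (GRCm38.p6, 250 bases before to 50 after an annotated start), 214 of 260 aligned bases were identical (82.3%), compared with 97.6% over the transcripts.

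The libraries held 27237310 to 51671903 reads in genes for spleen and 1439673 to 18349048 for lung, where control replicate 2 was the shallowest. Levels are given as normalised reads, that is read counts scaled to library size (CPM) after TMM scaling within spleen or within lung. Crlf2, the deleted gene, stood at 92.8, 146 and 105 normalised reads in the lung controls and at 9.06, 6.73 and 3.55 in the Crlf2-deleted libraries, for a log2 fold change of -4.16 and an SE of 0.36 (edgeR quasi-likelihood adjusted p = 0.00465), which goes with the labels. Foxp3 was detected in every library, at 134 to 179 normalised reads in spleen and 200 to 490 in lung. Lung control replicate 3 stood apart. Its summed marker level was 4654 normalised reads for monocytes and macrophages (425 to 1110 in the other 5 lung libraries, 8 of 10 genes above all 5), 428 for neutrophils (44.7 to 51.3, 8 of 8), 359 for B and plasma cells (20.8 to 30.7, 8 of 8), 139 for dendritic cells (20.7 to 30.5, 5 of 6) and 507 for CD8 T and NK cells (18.7 to 36.3, 8 of 8), while T cell and Treg markers summed to 2673 against 4132 to 5154. Lung epithelial markers were present in all lung libraries, at 79156, 16536 and 24456 normalised reads in the controls and 14715, 18033 and 2278 in the Crlf2-deleted libraries, and endothelial markers summed to 100 to 142 in the controls and 79.4 to 93.8 in the Crlf2-deleted libraries. The part of these other cells in the lung results was not tested, and fold changes of the 4 genes are given with and without control replicate 3.

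**Figure D1:**
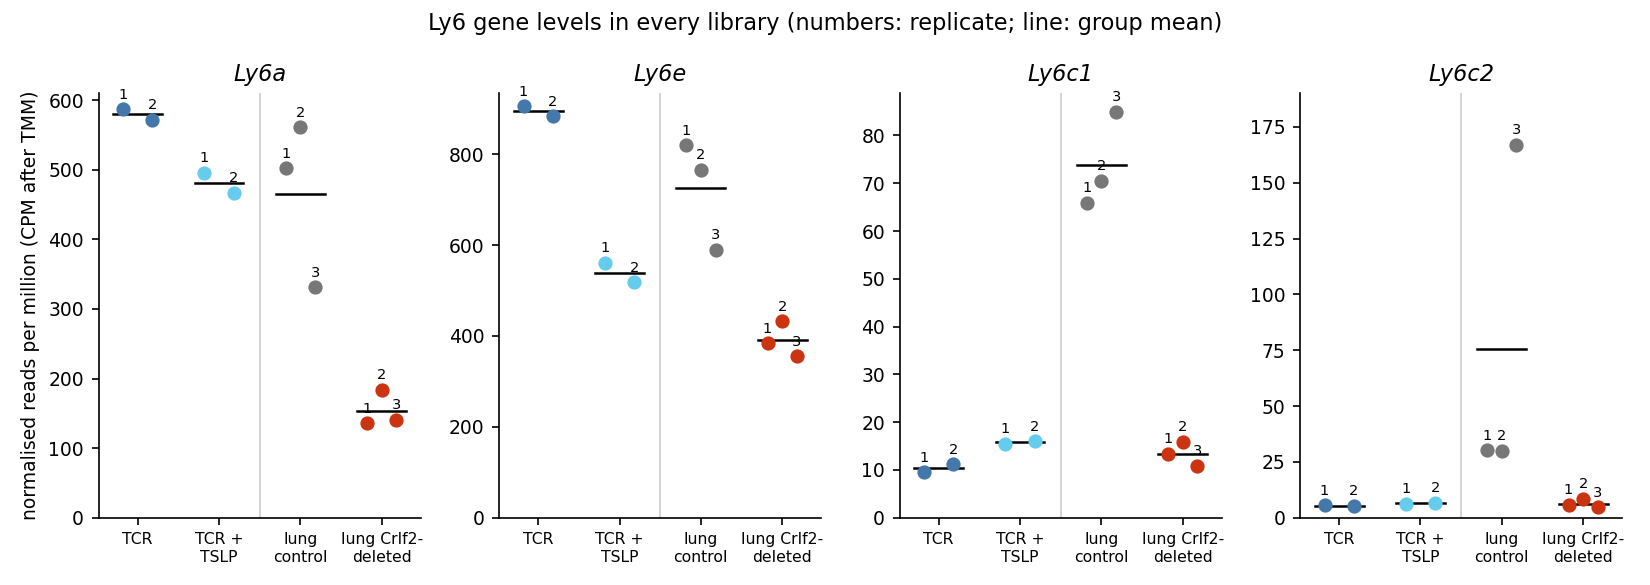
Normalised reads (CPM) of the 4 genes (y axis, linear, from 0, a scale of its own for each gene) in each library of the 4 groups (x axis); numbers are replicates and black lines are group means. In lung every control point lies above every Crlf2-deleted point for all 4 genes, and Ly6c2 of control replicate 3 (167) lies far above the other 2 controls (30.2 and 30.1).

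In lung Tregs, Ly6a, Ly6c1 and Ly6e fell with Crlf2 deletion, and Ly6c2 had lower values in all 3 Crlf2-deleted libraries without passing the test. Estimates for the 3 that fell ran from 1.86-fold for Ly6e to 5.52-fold for Ly6c1. In these bulk libraries fewer cells carrying a transcript and less of it per cell cannot be told apart. Of 12717 genes tested, 1.79% were called at an adjusted p under 0.05 (1.01% lower, 129 genes, and 0.771% higher, 98 genes), against 3 of the 4 Ly6 genes called lower. By position alone, 11.6% of genes had all Crlf2-deleted libraries below all controls, as all 4 Ly6 genes did, and 10.5% the reverse. Without control replicate 3, 2.17% of genes were called lower (280), and all 4 Ly6 genes were. The lung result for Ly6a was among the results in view when these genes were chosen, so their counts and fold changes describe these genes and are not independent evidence of a direction.

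Ly6a, which encodes Sca-1, stood at 502, 561 and 331 normalised reads in the lung controls and at 136, 184 and 141 in the Crlf2-deleted libraries. The lowest control was replicate 3, and it still lay above the highest Crlf2-deleted library. The log2 fold change, deleted against control, was -1.59 (SE 0.21, adjusted p = 0.0173), and 5.51% of the genes tested had a lower one. Without control replicate 3 it was -1.78 (adjusted p = 0.00172). The call was lost without control replicate 1 (adjusted p = 0.0608), control replicate 2 (0.0568), Crlf2-deleted replicate 1 (0.124) or Crlf2-deleted replicate 3 (0.136), with values between -1.41 and -1.52.

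Ly6e, the broadly expressed member, had 820, 766 and 590 normalised reads in the controls and 384, 432 and 355 in the Crlf2-deleted libraries. Control replicate 3 was again the lowest control, and the groups did not overlap. Deletion gave a log2 fold change of -0.89 with an SE of 0.15 (adjusted p = 0.03), and without control replicate 3 it was -1.02 (adjusted p = 0.00329). Leaving out any other single lung library ended the call: the adjusted p was 0.0861 without control replicate 1, 0.0914 without control replicate 2, and 0.19, 0.0624 and 0.186 without Crlf2-deleted replicates 1, 2 and 3.

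Ly6c1 stood at 65.9, 70.5 and 85.0 normalised reads in the controls and at 13.4, 15.9 and 10.9 in the Crlf2-deleted libraries. All 3 controls lay more than 4 times above the highest Crlf2-deleted library, and control replicate 3, the one rich in monocyte markers, was the highest. On the log2 scale the change was -2.46 (SE 0.21, adjusted p = 0.00465), with 1.74% of the genes tested below it. It was -2.34 without control replicate 3 (adjusted p = 0.00229), and the call was lost without Crlf2-deleted replicate 1 (-2.46, adjusted p = 0.067).

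Ly6c2, its near copy, stood at 30.2, 30.1 and 167 normalised reads in the controls and at 5.84, 8.49 and 4.75 in the Crlf2-deleted libraries. The groups did not overlap, but control replicate 3 held more than 5 times the level of the other 2 controls, which were alike. The log2 fold change of -3.61 had an SE of 0.80 and did not pass the test (adjusted p = 0.0987). Without control replicate 3 the value was -2.24 (SE 0.34, adjusted p = 0.0105), close in size to that of Ly6c1 in the same fit, although the difference between the genes was not tested. With the reads of both genes added together, the log2 fold change was -2.94 (adjusted p = 0.0261). The sum does not depend on how reads were split between the genes, provided each read was counted once, which is not known. It includes control replicate 3 and was not fitted without that library. The sum may still hold reads from sequence shared with Ly6a.

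The share of Ly6c2 in the reads of the pair shows the same library from another side. Ly6c2 made up 28.6% to 36.7% of the Ly6c1 and Ly6c2 reads in 9 libraries (median 30.4%), over both tissues and all 4 groups. In lung control replicate 3 it made up 66.3% (1765 of 2663 reads, 95% Wilson interval 64.5% to 68.0%, which covers counting error only, since reads carry no molecular identifiers). Monocyte markers were at 4.08 to 6.08 normalised reads in spleen and at 425 to 1110 in the other 5 lung libraries, and the share lay in the same range in both. The part of monocytes or other cells in the share of control replicate 3 was not tested.

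**Figure D2:**
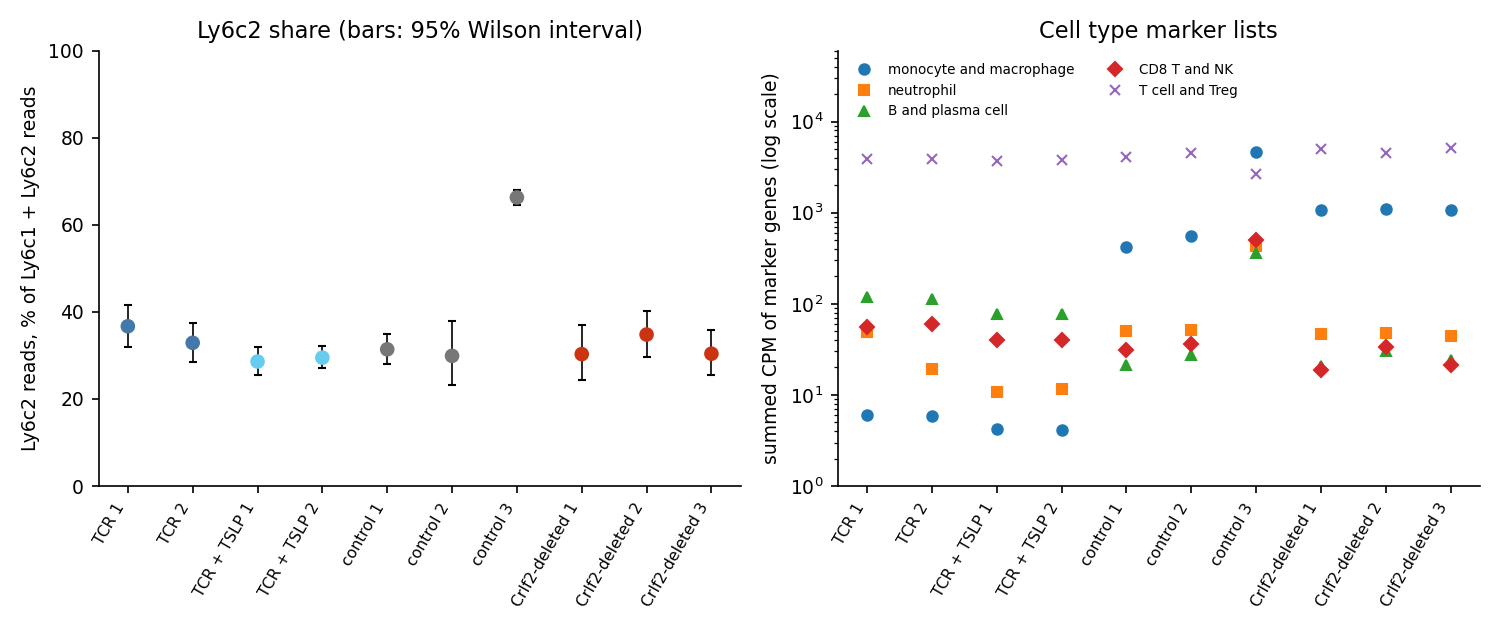
Left, Ly6c2 reads as a percentage of Ly6c1 plus Ly6c2 reads in each library, with 95% Wilson intervals. Right, summed normalised reads (CPM) of 5 marker lists on a log axis in the same libraries; control replicate 3 has a share of 66.3% against 28.6% to 36.7% elsewhere, and stands above the other lung libraries for monocyte, neutrophil, B cell and CD8 T and NK markers.

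Ly6c1 has 5 annotated transcripts, of 621 to 864 bases, whose reads overlap. The shortest held 20.4% and 22.5% as many reads as the longest in the TCR libraries, 33.0% and 36.2% with TSLP, and 60.8% to 72.6% in the 6 lung libraries. The values rank the same way in every library of a group, with the TCR libraries lowest and the lung libraries highest, and the lung genotypes overlapped. Between spleen and lung, tissue, culture and library kit cannot be told apart in this. Reads from sequence shared with Ly6a may also bear on these shares in all groups, which was not tested.

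In spleen nTregs under TCR stimulation, addition of TSLP was followed by lower Ly6e and higher Ly6c1, a slightly lower Ly6a whose sign depended on the processing, and a Ly6c2 that did not pass the test. This comparison had many calls: of 13214 genes, 23.1% were lower and 22.7% higher at an adjusted p under 0.05 (3051 lower, 2999 higher), and 37.3% and 38.1% had TCR + TSLP libraries wholly below or wholly above the TCR libraries. Of the 4 Ly6 genes 2 were called lower and 1 higher, in a comparison where 45.8% of all genes were called, and their median log2 fold change (-0.02) was near that of all genes (0.01). Fold changes here also moved with transcript length: the median was -0.74 over 939 genes of 500 to 1000 bases, -0.23 over 3092 genes of 1000 to 2000 bases and 0.10 over 5376 genes of 2000 to 4000 bases, whereas in lung every length class lay between -0.09 and -0.04. The transcripts of Ly6c2 (801 bases), Ly6c1 (864) and Ly6a (1002) are short, and that of Ly6e (2281) is not.

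Ly6e stood at 906 and 883 normalised reads with TCR alone and at 561 and 518 with TSLP. The replicates were close and the groups far apart. With TSLP the log2 fold change came to -0.73 (SE 0.09, adjusted p = 0.000583), the lowest p of the 4 genes in this comparison. Removing the length trend left it at -0.76 (adjusted p = 0.00143). On the authors' RPKM values, which keep a different library total, the value was -0.36 (limma, adjusted p = 0.0593 with 1 added before the logarithm).

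Ly6c1 rose from 9.49 and 11.2 normalised reads to 15.5 and 16, a log2 difference of 0.61 (SE 0.13, adjusted p = 0.00624). Both TSLP libraries lay above both TCR libraries. With the reads of all its transcripts summed the difference was 0.81, so its size depends on the transcript used. The part of reads from sequence shared with Ly6a was not tested. With the length trend removed the rise was 1.25 (adjusted p = 0.000948). The call was lost without TCR + TSLP replicate 2 (0.59, adjusted p = 0.0545).

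Ly6c2 went from 5.50 and 5.47 normalised reads to 6.21 and 6.71. These groups did not overlap either, but the log2 fold change of 0.24 (SE 0.16, adjusted p = 0.251) did not pass the test. It did pass with the length trend removed (0.94, adjusted p = 0.0043) and with Ly6c1 and Ly6c2 reads added together (0.49, adjusted p = 0.00818).

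Ly6a had 587 and 572 normalised reads with TCR alone and 496 and 467 with TSLP, a log2 difference of -0.27 (SE 0.09, adjusted p = 0.0343) that turned to 0.26 (adjusted p = 0.0491) with the length trend removed and to 0.10 (limma, adjusted p = 0.553) on the authors' RPKM. Its direction in this comparison is thus not settled by these data. The call also ended without TCR + TSLP replicate 1 (-0.32, adjusted p = 0.174) or replicate 2 (-0.22, adjusted p = 0.385).

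**Figure D3:**
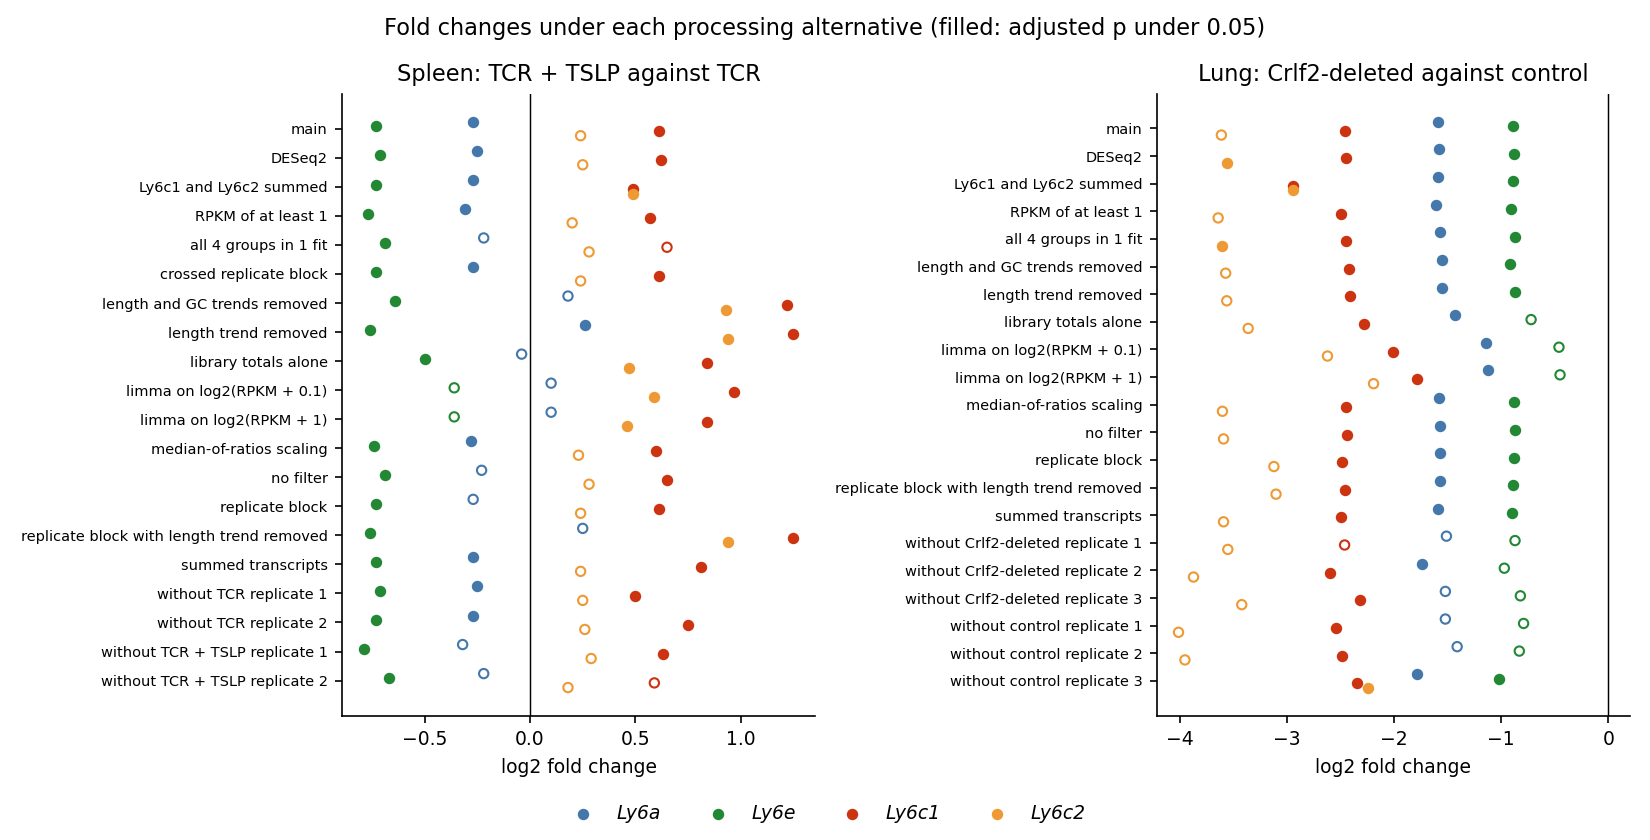
Log2 fold changes (x axis) of the 4 genes under each way of processing the data (rows), left for TSLP in spleen and right for Crlf2 deletion in lung; filled points have an adjusted p under 0.05. In lung all points lie below 0, whereas in spleen Ly6a lies on either side of 0, Ly6e stays below it and Ly6c1 and Ly6c2 stay above it.

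Across the groups the genes fell into a pair of high level and a pair of low level. For this, reads were scaled over all 10 libraries and divided by transcript length in kb. Ly6a was highest with TCR alone, at 629 ± 8.64 normalised reads per kb (SD, n = 2), followed by TCR + TSLP (539 ± 19.8, n = 2), lung control (430 ± 111, n = 3) and Crlf2-deleted lung (144 ± 25.0, n = 3). On this scale the step from TCR + TSLP to lung control was smaller than the SD of the controls. On the authors' RPKM, Ly6a was at 215 with TCR alone, 230 with TCR + TSLP, 77.5 ± 12.2 in lung control and 34.9 in Crlf2-deleted lung. The order of the spleen groups and the size of the step to lung thus depend on the scaling. Ly6e per kb was also highest with TCR alone (427 ± 5.82, n = 2), and Crlf2-deleted lung was lowest (161 ± 15.8, n = 3). Lung control (295 ± 49.4, n = 3) and TCR + TSLP (265 ± 13.4, n = 2) overlapped between them on this scale. On the authors' RPKM they did not, at 60.4, 50.9 and 49.7 in lung control and 117 and 109 with TCR + TSLP.

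The Ly6c genes had the opposite peak. Ly6c1 per kb was 79.3 ± 10.6 in lung control (SD, n = 3), 20.4 ± 0.628 with TCR + TSLP (n = 2), 14.6 ± 2.74 in Crlf2-deleted lung (n = 3) and 13.0 ± 1.56 with TCR alone (n = 2). The libraries of the last 2 groups overlapped. Ly6c2 per kb ranged from 34.8 to 193 in lung control, from 8.66 to 9.45 with TCR + TSLP, from 5.6 to 9.96 in Crlf2-deleted lung, and was 7.45 in both TCR libraries. On this scale the Crlf2-deleted lung libraries spanned both spleen groups, which did not overlap each other. On the authors' RPKM the Crlf2-deleted libraries (1.63, 2.28 and 1.46) lay below those with TCR alone (2.4 and 2.68) and with TCR + TSLP (3.69 and 4.04). In lung control the 4 genes were thus expressed at 430, 295, 79.3 and 87.8 mean normalised reads per kb for Ly6a, Ly6e, Ly6c1 and Ly6c2, the last carried by replicate 3. Tissue, culture, TCR stimulation and possibly the library kit cannot be told apart in any difference between spleen and lung, and no test was made of it.

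The remaining Ly6/uPAR family was mostly low in these cells. Of 38 other family genes listed, 35 were measured, 9 passed the filter on low counts in spleen and 12 in lung, and 5 had no read in any library. In spleen 3 of the 9 fell with TSLP (23.1% of all genes), with a median log2 fold change over the 9 of -0.52 (0.01 over all genes). They were Ly6d, a B cell and epithelial marker (2.71 and 2.43 to 1.18 and 1.26 normalised reads, log2 fold change -1.07, adjusted p = 0.0112), 2010109I03Rik, listed as Ly6m (2.75 and 1.2 to 0.375 and 0.549, -2.06, adjusted p = 0.00837), and Lypd6b (1.43 and 1.99 to 0.990 and 0.815, -0.93, adjusted p = 0.0459). All 3 were at under 3 normalised reads, and B and plasma cell markers also summed lower with TSLP (118 and 112 against 77.2 and 76.5), whose part was not tested. Ly6i (0.60), Plaur, the urokinase receptor (0.41), Cd59a, a complement regulator (-0.01), Ly6k (-0.06), Ly6g5b (-0.52) and Lynx1 (-0.76) gave these log2 fold changes without passing the test. Leaving out TCR replicate 2 raised the count to 6 of 10 called (5 lower, 1 higher), and leaving out either TCR + TSLP library lowered it to 1. With the length trend removed the median over the 9 was -0.03, with 1 higher and 3 lower.

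In lung 1 of the 12 fell (1.01% of all genes), with a median log2 fold change over the 12 of -2.25 (-0.04 over all genes, and -1.52 over 11 family genes without control replicate 3). This was Lypd6, with 48 reads in the controls (2.94, 6.16 and 1.61 normalised reads) and 1 read in the Crlf2-deleted libraries (adjusted p = 0.0386), a ratio of 88.0 of reads per library total before TMM scaling, with an exact 95% interval of 15.1 to 3547 that covers counting error only. Lypd6 passed the filter on low counts through the controls alone, so its call supports nothing about the family. Ly6k (0.0974, 0.16 and 0.313 normalised reads in the Crlf2-deleted libraries) and Psca (0.682, 0.561 and 0.47) passed it the same way. The median over the 12 is therefore partly set by the filter and gives no direction for the family. By limma on log2(RPKM + 1) the median over the 12 was -0.28 and 0 were called. Ly6i, the neighbour of Ly6a, had 13.5, 9.58 and 15 normalised reads in the controls and 3.02, 5.69 and 3.50 in the Crlf2-deleted libraries (log2 fold change -1.66, adjusted p = 0.0932). In several family genes control replicate 3 stood far above the other controls. Psca, an epithelial and tumour antigen, had 74.1 normalised reads there against 1.07 and 1.37 in the other controls, Ly6d 120 against 11 and 10.9, Plaur 209 against 20.3 and 20.5, and Cd177, a neutrophil antigen, 40.2 against 0.134 and 1.37. None of these 4 passed the test. Lypd2, known from airway epithelium, had 137, 14.4 and 62.8 normalised reads in the controls and 18.2, 17.3 and 2.72 in the Crlf2-deleted libraries (adjusted p = 0.313), and Ly6g5b was the family gene with higher values after deletion (log2 fold change 1.05, adjusted p = 0.283). Ly6k (-3.31), Lynx1 (-2.62), Ly6g6c (-1.18) and 2010109I03Rik (-0.45) also did not pass. Without control replicate 3, 2 of 11 family genes were called, 1 in each direction, and without any other lung library 0 were.

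The enzymes that build and attach the GPI anchor, on which all 4 proteins depend, were expressed throughout. Of 29 such genes tested, 9 rose and 5 fell with TSLP in spleen, where 22.7% of all genes were called higher and 23.1% lower. The median log2 fold change was 0.18 (0.01 over all genes). The lowest p-values belonged to Pigyl (-1.18, adjusted p = 0.000312), Dpm2 (-0.80, adjusted p = 0.000611) and Dpm3 (-1.04, adjusted p = 0.000615), small subunits of enzymes on which anchor synthesis depends. With the length trend removed the counts were 7 higher and 1 lower, and without TCR + TSLP replicate 2 they were 4 and 3. In lung, where edgeR called 1.79% of all genes, it called 0 of the 29, which is near that share. DESeq2 also called 0, with 1 at an unadjusted p under 0.05, and edgeR called 0 without control replicate 3. On each RPKM scale limma called 1, as higher.

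Other GPI-anchored proteins of lymphocytes moved both ways in spleen, where 5 of 12 rose and 4 fell with TSLP (22.7% and 23.1% of all genes). Cd160 (-1.91, adjusted p = 0.000159), Cd52 (-1.02, adjusted p = 0.000226) and Bst2, the interferon-inducible virus tether tetherin (-0.74, adjusted p = 0.00111), were the first by p. Without TCR + TSLP replicate 1 the counts were 1 and 4, and without replicate 2 they were 1 and 3. With the length trend removed 4 rose and 1 fell, and with scaling by library totals alone 7 rose and 3 fell. In lung Bst2 was the 1 gene of 12 that fell, from 444, 421 and 281 normalised reads to 83.6, 109 and 61.1 (log2 fold change -2.18, adjusted p = 0.0119). Over all genes 1.01% were called lower. The median over the 12 was -0.58 (-0.35 without control replicate 3, -0.02 by limma on log2(RPKM + 1)). The call of Bst2 was lost without control replicate 2 or Crlf2-deleted replicate 1 or 3, when 0 of the 12 were called, and 2 fell without control replicate 3. The groups of Bst2 did not overlap, and control replicate 3 was the lowest control, as for Ly6a and Ly6e.

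Of 16 interferon receptor and signalling genes, the pathway known to induce Ly6 transcription, 5 fell in lung and 0 rose by edgeR (1.01% and 0.771% of all genes). Their median log2 fold change was -0.68 (-0.04 over all genes). By limma on log2(RPKM + 1) 4 rose and 5 fell, with a median of -0.24, and with scaling by library totals alone 0 rose and 2 fell. Isg15, a ubiquitin-like interferon response protein, went from 189, 174 and 111 normalised reads to 21.0, 38.8 and 20.6 (log2 fold change -2.56, adjusted p = 0.0129). Stat2 (-1.28, adjusted p = 0.0131), which carries type I interferon signals, and Socs1 (-1.12, adjusted p = 0.0264), a feedback inhibitor, were the next by p, and Irf7 (-1.96) also passed. The receptors (Ifnar1 0.37, Ifnar2 0.45, Ifngr1 0.24, Ifngr2 -0.29) and kinases (Jak1 0.18, Jak2 -0.39, Tyk2 0.45) did not pass, so the calls do not cover the list as a whole. Without control replicate 3, 7 of the 16 fell, and without control replicate 1 or 2 or Crlf2-deleted replicate 1 or 3, 0 were called. In spleen, where 45.8% of all genes were called, 5 of the 16 rose and 3 fell with TSLP. Jak2 (0.70, adjusted p = 0.000527) and Socs1 (0.68, adjusted p = 0.00274) rose, and Irf7 (-0.81, adjusted p = 0.00617) and Isg15 (-0.43) fell. Without TCR + TSLP replicate 1 the counts were 2 and 1, and without replicate 2 they were 2 and 2. Of 5 interferon genes, Ifng was the 1 that passed the filter, with log2 fold changes of -0.20 in spleen and -0.53 in lung that did not pass the test. Its log2 fold change was 0.18 in spleen with the length trend removed and 0.19 in lung without control replicate 3, so no direction is given.

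Ly6C staining is used to tell resting from activated Tregs, and genes of both states were therefore counted. In lung the median log2 fold change of 12 resting or lymphoid-homing genes was -0.70, and it was -0.45 without control replicate 3 and -0.16 by limma on log2(RPKM + 1). Among 10 effector Treg genes 3 rose, against 0.771% of all genes: Ccr8 (1.85, adjusted p = 0.0196), Klrg1 (1.25, adjusted p = 0.0354) and Tigit (1.09, adjusted p = 0.0474). These effector calls were lost without control replicate 1 or 2 or Crlf2-deleted replicate 1 or 3, and 4 genes rose and 1 fell without control replicate 3. With a replicate block 0 of the effector genes were called in lung, and with summed transcripts 1 was. DESeq2 called 4 higher and 1 lower. In spleen, where 45.8% of all genes were called, 4 of 12 resting genes rose and 4 fell with TSLP. Dapl1 (-2.43), Satb1 (1.02) and Foxp1 (-0.97) were first by p. Of 10 effector genes 5 rose and 3 fell, led by Ccr8 (1.46), Tigit (1.06) and Irf4 (0.82). The resting counts were 2 higher and 4 lower without TCR + TSLP replicate 2, and 6 and 4 without TCR replicate 1. The effector counts were 4 and 1 without TCR + TSLP replicate 1 and 4 and 0 without replicate 2. With the edgeR settings used throughout, Ccr8 and Tigit therefore passed as higher both with TSLP in spleen and with Crlf2 deletion in lung.

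**Figure D4:**
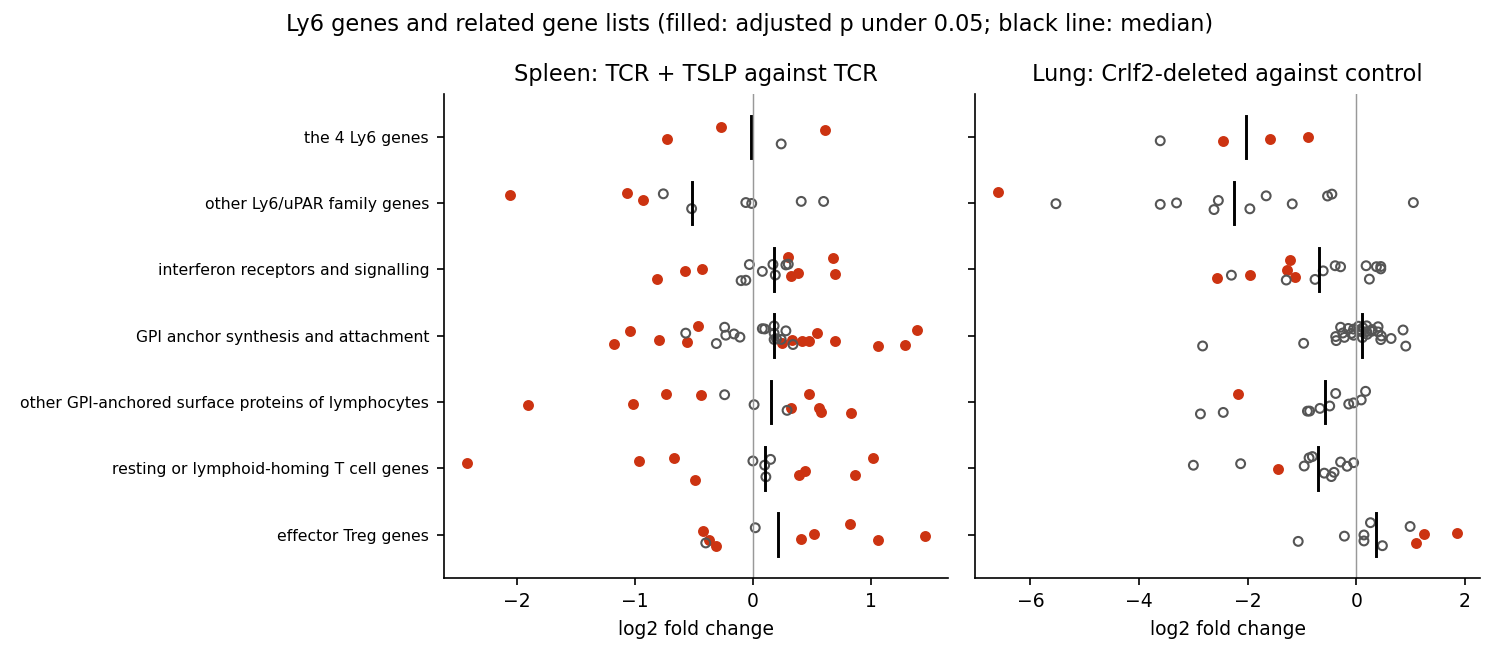
Log2 fold change (x axis) of each tested gene of the 4 Ly6 genes and of 6 related lists (rows) in spleen (left) and lung (right); filled red points have an adjusted p under 0.05 and black lines are medians. In lung the Ly6 genes (median -2.02) and the other Ly6/uPAR genes (median -2.25) lie to the left, and GPI anchor synthesis genes (median 0.10) lie near 0. The median of the other Ly6/uPAR genes is partly set by the filter on low counts.

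The genes whose levels followed each Ly6 gene most closely were ranked by the correlation of log2 levels over the 10 libraries after centring within each tissue, among 11886 genes tested in both comparisons. The 4 Ly6 genes were left out as candidates, so how closely they followed each other is not given. The points share their libraries and the ranking takes the top of many genes, so it is a description that includes control replicate 3. Ly6a was nearest to Isg15 and Zbp1 (Pearson r = 0.99 each), then Slc28a2, Ms4a6b and Ifih1 (r = 0.98 each). Isg15, Zbp1 and Ifih1 are textbook interferon-stimulated genes, and their lung log2 fold changes were -2.56, -2.11 and -2.08. Those of Slc28a2 and Ms4a6b were -0.87 and -1.04. Centring within tissue keeps the difference between the groups of a tissue, so genes that fell in lung can rank high for that alone. These fold changes are therefore no separate support. Ly6e was nearest to Apip, Ifi27l2a and Trappc1 (r = 0.98 each), then Mvd and Phf11b (r = 0.97 each). Ly6c1 was nearest to D730005E14Rik, Apol7e, 9330133O14Rik and Gpr183 (r = 0.98 each) and Spats2 (r = 0.97), of which Gpr183 is an oxysterol-sensing migration receptor. Ly6c2 was nearest to Slc25a37 (r = 0.98), St3gal4 and Gyg (r = 0.97 each) and Serpinb9 and Evl (r = 0.96 each). The 5 nearest genes of each of the 4 did not recur in another's 5.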

How the data were processed

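The authors deposited, for each library, whole-read counts per RefSeq transcript (31682 transcripts, per the file headers) and RPKM values, which the authors scaled to totals above the sum of those reads. Per the submitters' processing notes, TopHat2 2.2.1, Bowtie2 2.2.6, edgeR, bedtools 2.25.0 and SAMtools 0.1.8 were used with mm10. The sources used here do not say what each did, whether strand was used in counting or how multimapping reads were handled. Per the labels' protocols, libraries of TCR-stimulated Tregs came from a stranded total RNA kit and reads were 50 bp single ends, and the lung kit is not given separately.

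Where a symbol had several transcripts (4343 symbols), the one with most reads on average represented it. Counts were tested within each comparison with edgeR 4.0.16 in R 4.3.3 (TMM, filterByExpr with a minimum count of 10, robust quasi-likelihood F test, two-sided, Benjamini-Hochberg over all genes tested). Where no tool is named, an adjusted p is edgeR's. The threshold was 0.05. The SE is the log2 fold change divided by the root of F. Alternatives were DESeq2 1.42.0, limma 3.58.1 on log2(RPKM + 1) or log2(RPKM + 0.1), other scalings and filters, summed transcripts, length and GC trends removed by loess, a replicate block, 1 fit of all groups, and leaving out each library. The edgeR step was tested on simulated data. Of 100 genes changed by a log2 of 1 it recovered 27 in lung and 79 in spleen. Of 100 changed by a log2 of 2 it recovered 65 and 90. False calls were 5 of 97 in lung and 6 of 175 in spleen. A gene that did not pass in lung is thus not shown to be unchanged. Fold changes on the log2(RPKM + pseudocount) scale understate changes of low genes. The 4 genes and all lists were chosen with earlier results of these data known, so no p was adjusted over them alone. Genes named from lists were the first 3 by p among those called, all tested Ly6/uPAR genes, and the 5 most alike genes of each member. Irf7 and the interferon receptors and kinases in lung, Isg15 in spleen, the Zbp1, Ifih1, Slc28a2 and Ms4a6b folds and Ifng were added after their values were seen. The results of 2 genes from the lists are not reported here.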

Additional observations from a re-analysis of the deposited data

How the results depend on the processing

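For the 4 Ly6 genes in lung the direction was the same under all 20 alternatives. Ly6a and Ly6c1 passed in all but the leave-one-out fits named in the report. Ly6e did not pass with library totals alone (-0.72, adjusted p = 0.0969) or by limma on log2(RPKM + 1) and log2(RPKM + 0.1) (-0.45 and -0.46, adjusted p = 0.0913 and 0.0901). Ly6c2 passed with DESeq2 (-3.56, adjusted p = 0.00112), summed with Ly6c1 (-2.94), with all 4 groups in 1 fit (-3.60, adjusted p = 0.0128) and without control replicate 3. Leaving out 1 library at a time gave -1.78 to -1.41 for Ly6a, -2.60 to -2.32 for Ly6c1, -4.01 to -2.24 for Ly6c2 and -1.02 to -0.79 for Ly6e.

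In spleen Ly6a reversed with the length trend removed (0.26), with length and GC trends removed (0.18, adjusted p = 0.156), with the replicate block and length trend together (0.25, adjusted p = 0.108) and with limma on either RPKM scale (0.10 each). It did not pass with all 4 groups in 1 fit (-0.22, adjusted p = 0.637), library totals alone (-0.04, adjusted p = 0.702) or no filter (-0.23, adjusted p = 0.0818). Ly6c1 did not pass with all 4 groups in 1 fit (0.65, adjusted p = 0.108). Ly6c2 passed with both genes summed (0.49), length removed (0.94), length and GC removed (0.93, adjusted p = 0.00528), library totals alone (0.47, adjusted p = 0.0389) and limma on RPKM (0.46 and 0.59, adjusted p = 0.00604 and 0.00673 for 1 and 0.1 added). Ly6e did not pass by limma on RPKM (-0.36 each, adjusted p = 0.0593 and 0.0544). Leave-one-out ranges were -0.32 to -0.22 for Ly6a, 0.50 to 0.75 for Ly6c1, 0.18 to 0.29 for Ly6c2 and -0.79 to -0.67 for Ly6e, the lone library of an arm being assumed to vary like the other group. Beyond length, the cause of these changes was not tested.

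Counts over all genes in lung were 227, against 936 with DESeq2, 873 with all groups in 1 fit, 856 and 804 on RPKM (1 and 0.1 added), 134 with summed transcripts and 4 to 532 leaving out 1 library. In spleen they were 6050, against 1356 with all groups in 1 fit, 4030 with length and GC removed and 3212 to 8626 leaving out 1 library. Higher and lower calls in spleen were 2999 and 3051, against 5059 and 2000 with library totals alone, 5680 and 1251 on log2(RPKM + 1) and 5606 and 1367 on log2(RPKM + 0.1). In lung they were 98 and 129, against 137 and 57, 762 and 94, and 719 and 85. The median log2 fold change of all genes moved to 0.24 and 0.14 with library totals alone, 0.20 and 0.21 on log2(RPKM + 1) and 0.33 and 0.37 on log2(RPKM + 0.1), in spleen and lung.

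Deviations of same-numbered libraries from their group means correlated at -0.131 in spleen and at 0.078, -0.147 and -0.046 in lung. With 2 libraries per group the 2 deviations mirror each other, so crossed numbers in spleen had to give 0.131. These values cannot show whether libraries were paired in the experiment. With the replicate block, lung calls were 121 (123 with the length trend also removed), spleen Ly6a did not pass (-0.27, adjusted p = 0.0706) and spleen Ly6c2 passed with the length trend removed (0.94, adjusted p = 0.000397). A crossed replicate block in spleen, chosen after seeing the data, gave 7105 calls against 6050 and 5817 with the same-numbered block. Depth limits the low genes most: Ly6c2 had 44 reads in lung control replicate 2.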
